A study of Mus musculus with 20 samples.

Results

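Matrix remodelling was followed here through 10 genes of mouse liver: the matrix metalloproteinases Mmp2, Mmp9, Mmp13, Mmp14 and Mmp19, their tissue inhibitors Timp1, Timp2 and Timp3, and the collagen cross-linking oxidases Lox and Loxl2. They were picked by symbol, and each was found as 1 row among the 46095 gene symbols of the table of RNA-seq counts, and all 10 passed the low-count filter that left 14440 genes to test. Whole livers of wild-type (WT) mice and of mice with a liver-specific knockout of Pck1 (KO) were compared on a chow diet and on a diet given to induce non-alcoholic steatohepatitis (NASH). Each of the 4 groups (WT chow, WT NASH, KO chow and KO NASH) held 5 mice aged 31 to 33 weeks, fed their diet for 24 weeks. Pck1 is the gene of the cytosolic form of phosphoenolpyruvate carboxykinase, which takes part in gluconeogenesis. The labels used here name no strain, no sex and no Cre driver, and whole liver was sequenced, so the cells that lost Pck1 were not separated from the others.

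Metalloproteinases are secreted or membrane-bound zinc enzymes that are made as inactive precursors and cut collagens, laminins and other matrix proteins once activated. Timp proteins bind the active enzymes and block them, and the Timp2 protein also takes part, with the membrane enzyme Mmp14, in activating the Mmp2 precursor. Lox and Loxl2 are copper-dependent enzymes that oxidise lysines of collagen and elastin and so start the cross-links that make a fibrous matrix harder to degrade. In injured liver the matrix is laid down mainly by stellate cells that have become myofibroblasts, while macrophages and neutrophils supply several of the proteases.

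Promoter sequence was at hand for 5 of the 10 genes in a table of RefSeq starts on GRCm38.p6 (Mmp13, Mmp14, Timp1, Timp2 and Timp3). Those of Mmp13 and Timp1 are printed because these genes moved together between libraries, and that of Mmp14 as that of an abundant protease with other motifs. Each run is the 150 bases before the start, 5′ to 3′ on the plus strand of the gene, from chr9:7272364-7272513, chr14:54431448-54431597 and chrX:20870016-20870165. Capitals mark an AP-1 motif and a TATA box in Mmp13, a pair of GC boxes in Mmp14, and 1 GC box, read on the other strand, in Timp1.
Mmp13: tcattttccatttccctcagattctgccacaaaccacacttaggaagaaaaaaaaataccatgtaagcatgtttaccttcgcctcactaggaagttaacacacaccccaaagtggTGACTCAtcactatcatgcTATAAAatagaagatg
Mmp14: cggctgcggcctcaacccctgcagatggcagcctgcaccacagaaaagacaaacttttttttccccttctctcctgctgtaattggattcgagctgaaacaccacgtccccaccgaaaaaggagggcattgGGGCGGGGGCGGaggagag
Timp1: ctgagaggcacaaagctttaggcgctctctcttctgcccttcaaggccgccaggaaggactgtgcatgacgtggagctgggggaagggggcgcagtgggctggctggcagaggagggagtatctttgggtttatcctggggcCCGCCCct
The GC content of these runs was 38.7% for Mmp13, 57.3% for Mmp14 and 62.7% for Timp1. Motifs were searched on both strands of 32817 promoters, in windows of 300 bases that reach across each start. The AP-1 letters TGANTCA were in 7.81% of all promoters and in 1 of the 5 at hand, Mmp13, where the motif began 35 bases before the start. The TATA box TATAAA was in 13.6% of promoters and likewise in Mmp13 alone of the 5, and its first base lay 16 bases before the start without overlapping the AP-1 letters. The GC box GGGCGG was in 35.6% of promoters and in 4 of the 5, all but Mmp13. The ETS core GGAAGT was in 23.8% and in Mmp13 and Timp1, and the SMAD element GTCTAGAC was in 0.213% and in none of the 5. These are matches of letters and no measure of binding.

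The libraries held 9958935 to 20601955 counts, and levels are given as CPM, the count relative to a library total scaled with TMM. Pck1 checked the genotype labels: on chow the knockout held 626 ± 175 CPM against 3573 ± 1139 in WT (SD, n = 5 each), and on the NASH diet 445 ± 112 against 2290 ± 511 CPM, with no overlap between genotypes in either diet. Sex was read from Y-linked counts, and the groups were unbalanced in it: WT chow held 5 males, WT NASH 1 male (replicate 4), KO chow 3 males (replicates 1, 2 and 4) and KO NASH 4 males (all but replicate 2). In 6 libraries (KO chow replicates 4 and 5, WT chow replicates 3, 4 and 5, and WT NASH replicate 4) expression relative to the mean of the libraries fell with gene length, with a slope of -0.343 to -0.247, against 0.00987 to 0.194 in the other 14. KO NASH replicates 1 and 5 were the most alike pair of any group, with a chi-square per gene of 7.98 between their counts against at least 21.6 for every other pair within a group, so that they differed by more than sampling noise. They were also the 2 highest of all 20 libraries for 6 of the 10 genes (Mmp2, Mmp14, Timp2, Timp3, Lox and Loxl2). The differences of the 10 genes in KO NASH that passed the main test are given with and without KO NASH replicates 1 and 5. The rest of the 10, and the other genes of the pathway, are given mainly as counts that passed without these 2 libraries.

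Measured per kilobase of exon, so that genes can be compared, Mmp19 was the most abundant of the 10 in every group, at 24.0 ± 5.14 CPM per kb in WT chow (n = 5), and its range overlapped that of no other gene. Mmp14, the membrane-anchored collagenase, came next at 7.03 ± 1.87, followed by Timp3 at 5.11 ± 0.894 and Timp2 at 2.90 ± 0.781 CPM per kb. Neighbours in that order overlapped between libraries, except that Timp2 stood clear of the next gene, Mmp2, at 0.603 ± 0.213 CPM per kb. Timp1, Loxl2, Mmp13, Mmp9 and Lox, at 0.501 down to 0.155 CPM per kb, overlapped with their neighbours in WT chow. In KO NASH the first 4 kept their order, at 20.2, 9.84, 7.63 and 6.39 CPM per kb, and Mmp2 came next at 2.38 ± 1.40 CPM per kb. Depth limited the rarest genes: Timp1 had fewer than 10 counts in 11 of 20 libraries, Mmp13 in 10, and Mmp9 and Lox in 8 each. The positions are from GENCODE M21 on GRCm38: Mmp2 lies at chr8:92827291-92853420, Timp2 at chr11:118301069-118355740, Timp3 at chr10:86300372-86349506, Loxl2 at chr14:69609068-69695834 and Mmp19 at chr10:128790910-128800824. Exons of other genes overlap on the opposite strand by 1733 bases for Timp3 (Syn3), 1001 bases for Mmp19 (Tmem198b and Gm47093) and 301 bases for Loxl2 (Gm27177), and reads there may be from either gene because the strand setting of the counting is not given.

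**Figure D1:**
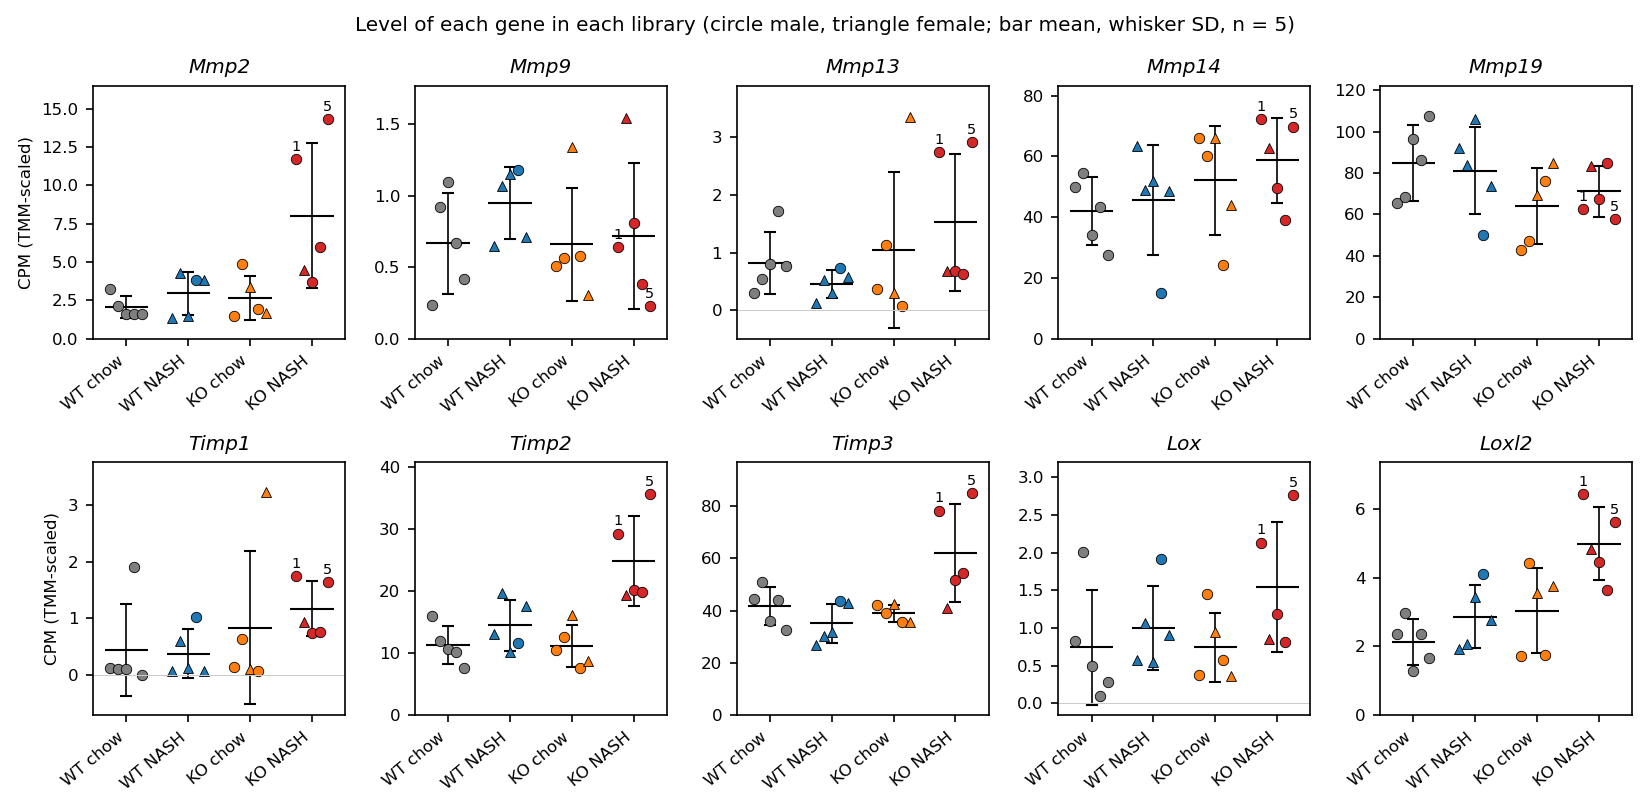
CPM of each gene (y axis, linear) in the 5 libraries of each group (x axis); circles are males and triangles females, the horizontal bar is the mean and the whisker the SD, and KO NASH replicates 1 and 5 are numbered. These 2 libraries are the highest of all 20 for Mmp2, Mmp14, Timp2, Timp3, Lox and Loxl2, but not for Mmp9 or Mmp19.

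The NASH diet in WT liver and the loss of Pck1 on chow each left all 10 genes without a call. In WT NASH against WT chow 0 of 10 passed an edgeR adjusted p of 0.05, where 5.93% of all 14440 genes tested did (2.69% higher). None reached an unadjusted p under 0.05, against 22.1% of all genes, and none was called by DESeq2 (10.4% of genes) or by limma voom with quality weights (40.6%). The groups overlapped for every one of the 10, while 6.15% of genes did not overlap. Of the 10 fitted values 6 were positive, with a median log2 fold change of 0.21 against 0.01 over all genes. They ran from -0.87 (SE 0.81) for Mmp13, an interstitial collagenase, to 0.52 (SE 0.51) for Mmp9, the gelatinase of leukocytes.

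For KO chow against WT chow the count was also 0 of 10 (5.53% of all genes called, 3.03% higher), with 0 at an unadjusted p under 0.05 (19.4% of genes) and no gene of the 10 without overlap (4.91% of genes). The median log2 fold change was 0.16, against 0.00 over all genes, and the values ran from -0.40 (SE 0.23) for Mmp19 to 1.02 (SE 1.05) for Timp1. DESeq2 called none (9.62% of genes). Limma voom with quality weights called Mmp19 lower (log2 fold change -0.84, limma adjusted p = 0.00375) and Mmp14 higher (0.68, limma adjusted p = 0.046), in a fit that called 40.4% of all genes. With sex and the length slope as terms, edgeR also called Mmp19 lower (-0.56, adjusted p = 0.0398), and Mmp14 changed sign to -0.23 (adjusted p = 0.467).

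On the NASH diet the knockout livers held more Mmp2 and Timp3 than WT livers. Mmp2, the gelatinase that degrades denatured and basement membrane collagen, was 2.75-fold higher, and Timp3, the inhibitor that binds to the matrix itself, was 1.77-fold higher. These were the 2 called higher and none was called lower, of 10 tested; 9.65% of all genes were called and 4.9% were called higher. At an unadjusted p under 0.05 there were 5 (Mmp2, Mmp13, Timp2, Timp3 and Loxl2), where 25.6% of genes reached it. The median of the 10 log2 fold changes was 0.80, against 0.00 over all genes, and 8 were positive. None of the 10 was free of overlap between the groups, where 14.1% of genes were.

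Mmp2 was at 1.36, 4.27, 1.45, 3.83 and 3.81 CPM in WT NASH replicates 1 to 5 and at 11.7, 4.45, 3.66, 5.99 and 14.3 CPM in KO NASH replicates 1 to 5. KO NASH replicates 1 and 5 stood far above the rest, and replicate 3 lay below 3 of the WT NASH libraries. The log2 fold change was 1.46 with an SE of 0.44 (edgeR adjusted p = 0.0401, range over the alternatives 0.0115 to 0.965). The call was lost without any 1 of WT NASH replicates 1, 3, 4 and 5 or KO NASH replicates 1 and 5, and with sex (1.14, adjusted p = 0.197) or the length slope (1.25, adjusted p = 0.0612) as a term, or with only the WT NASH and KO NASH libraries fitted (1.45, adjusted p = 0.0565). Without both KO NASH replicates 1 and 5 the log2 fold change was 0.70 (adjusted p = 0.441).

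Timp3 was at 26.9, 30.4, 31.9, 43.6 and 42.8 CPM in WT NASH and at 78.3, 41.0, 51.8, 54.4 and 85.0 CPM in KO NASH. The 4 KO NASH males exceeded every WT NASH library, and the single KO NASH female, at 41.0 CPM, lay within the range of the 4 WT NASH females, 26.9 to 42.8 CPM. The log2 fold change was 0.82 with an SE of 0.20 (edgeR adjusted p = 0.0153, range over the alternatives 0.00134 to 0.963). It was called in each of the 20 fits that left out 1 library (adjusted p 0.00715 to 0.0448), but not with sex as a term (0.63, adjusted p = 0.109) or without both KO NASH replicates 1 and 5 (0.50, adjusted p = 0.194).

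Timp2, Loxl2 and Mmp13 missed the edgeR threshold in this comparison. Timp2 was at 13.2, 19.8, 10.2, 11.6 and 17.6 CPM in WT NASH and at 29.3, 19.4, 20.2, 19.8 and 35.7 CPM in KO NASH. A single WT NASH library, replicate 2, reached into the KO NASH range, and the log2 fold change of 0.78 (SE 0.25) had an edgeR adjusted p of 0.0559. Loxl2, which also acts on type IV collagen, was at 1.94, 2.08, 3.45, 4.12 and 2.78 CPM in WT NASH and at 6.44, 4.83, 4.47, 3.64 and 5.62 CPM in KO NASH. Here too 1 library of each group crossed, the WT NASH male replicate 4 and KO NASH replicate 4, and the log2 fold change was 0.82 with an SE of 0.31 (edgeR adjusted p = 0.0961). DESeq2 called both genes higher besides Mmp2 and Timp3 (DESeq2 adjusted p = 0.0252 for Timp2 and 0.0443 for Loxl2), 4 of the 10, where it called 15.2% of all genes.

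Mmp13 was at 0.129, 0.534, 0.303, 0.736 and 0.581 CPM in WT NASH and at 2.73, 0.684, 0.683, 0.623 and 2.90 CPM in KO NASH. Replicates 1 and 5 of KO NASH stood far above the other 3, which lay below the highest WT NASH library, and the log2 fold change of 1.81 (SE 0.77) had an edgeR adjusted p of 0.142. With the length slope as a term it was called (2.24, adjusted p = 0.0457). Timp1, the inhibitor most often raised in fibrotic tissue, was at 0.0646, 0.593, 0.121, 1.03 and 0.0646 CPM in WT NASH and at 1.75, 0.940, 0.745, 0.767 and 1.63 CPM in KO NASH. KO NASH replicates 1 and 5 alone exceeded the highest WT NASH library, replicate 4, and the log2 fold change was 1.85 with an SE of 1.07 (edgeR adjusted p = 0.286). Limma voom with quality weights called Timp1 (2.53, limma adjusted p = 0.00485) among 5 of the 10, in a fit that called 23.8% of all genes. The remaining 4 genes were not called over all 20 libraries by edgeR, DESeq2 or limma: the log2 fold change was 0.70 (SE 0.58) for Lox, 0.36 (SE 0.32) for Mmp14, -0.19 (SE 0.23) for Mmp19 and -0.39 (SE 0.49) for Mmp9.

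With sex as a term 0 of the 10 were called (4.33% of all genes), as they were without both KO NASH replicates 1 and 5 (2.62% of genes). Without the 6 libraries of negative length slope there were 6 (Mmp2, Mmp13, Timp1, Timp2, Timp3 and Loxl2), where 20.3% of genes were called.

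**Figure D2:**
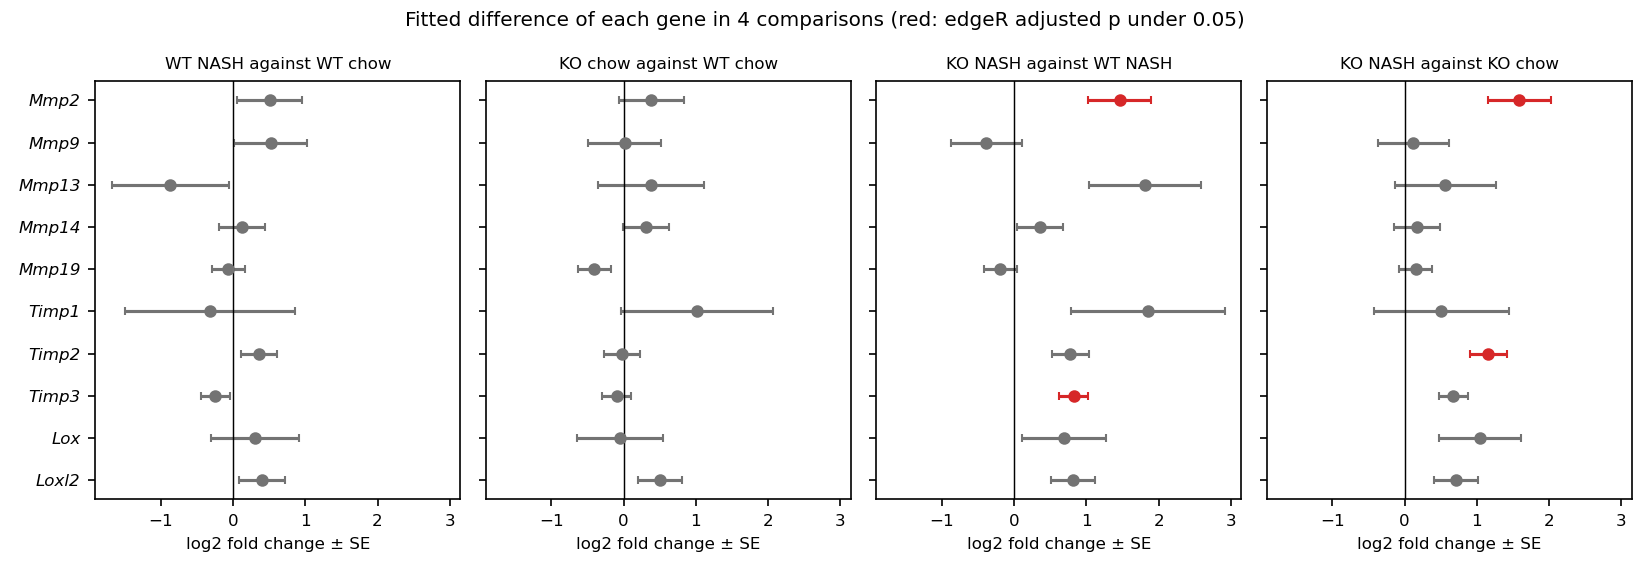
Log2 fold change (x axis) with its SE for each gene (y axis) in 4 comparisons, from the edgeR fit to 20 libraries; red points have an adjusted p under 0.05. Mmp2 and Timp3 are red for KO NASH against WT NASH and Mmp2 and Timp2 for KO NASH against KO chow, and none is red in the other 2 panels.

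Within the knockout, the NASH diet was accompanied by more Timp2 and Mmp2. Timp2, the soluble inhibitor that also serves in Mmp2 activation, was 2.24-fold higher in KO NASH than in KO chow, and Mmp2 was 3.00-fold higher. These were the 2 called of 10, both higher (3.29% of all genes called, 1.77% higher), and 4 had an unadjusted p under 0.05 (22.2% of genes) with Timp3 and Loxl2. All 10 log2 fold changes were positive, with a median of 0.62 against -0.02 over all genes. The comparison shares its KO NASH libraries with the one before, so the 2 are not independent.

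Timp2 was at 10.5, 12.6, 16.1, 7.62 and 8.75 CPM in KO chow replicates 1 to 5, all below the lowest KO NASH library at 19.4 CPM. It was 1 of 10 without overlap and higher, where 4.19% of genes were. The log2 fold change was 1.16 with an SE of 0.25 (edgeR adjusted p = 0.0206, range over the alternatives 0.000956 to 0.640). The difference was called with sex as a term (1.19, adjusted p = 0.0207) and with the length slope as a term (0.97, adjusted p = 0.0122). The call was lost without any 1 of KO chow replicates 1, 4 and 5 or KO NASH replicate 5. It was also lost without both KO NASH replicates 1 and 5 (0.83, adjusted p = 0.141).

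Mmp2 was at 1.48, 4.87, 3.37, 1.96 and 1.64 CPM in KO chow, so that the highest of them, replicate 2, exceeded KO NASH replicates 2 and 3. Its log2 fold change of 1.58 (SE 0.43) had an edgeR adjusted p of 0.0492, and the alternatives gave 0.00963 to 0.692. That call was lost in 14 of the 20 fits that left out 1 library (adjusted p 0.0339 to 0.144), among them those without KO NASH replicate 1, 2, 4 or 5 and without KO chow replicate 1, 4 or 5. It was also lost without the low-count filter (1.56, adjusted p = 0.0638), with only the compared groups fitted (1.58, adjusted p = 0.0676), with sex (1.45, adjusted p = 0.0711) or the length slope (1.41, adjusted p = 0.0568) as a term, and without both KO NASH replicates 1 and 5 (0.81, adjusted p = 0.363). Timp3 was at 42.2, 39.0, 42.4, 35.7 and 35.6 CPM in KO chow, a narrow range that KO NASH replicate 2 alone reached into. Its log2 fold change was 0.67 with an SE of 0.20 (edgeR adjusted p = 0.0699), and DESeq2 called it (DESeq2 adjusted p = 0.0238) as 1 of 3, where it called 9.02% of genes.

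The other members were not called by edgeR or DESeq2. Lox, at 0.365 to 1.45 CPM in KO chow against 0.815 to 2.77 CPM in KO NASH, had a log2 fold change of 1.05 with an SE of 0.57 (edgeR adjusted p = 0.280). Loxl2, at 1.71 to 4.42 against 3.64 to 6.44 CPM, had one of 0.71 with an SE of 0.30 (edgeR adjusted p = 0.172). For Timp1 and Mmp13 the comparison turned on KO chow replicate 5, which held 3.22 and 3.34 CPM, the highest of all 20 libraries for both. The log2 fold change was 0.51 (SE 0.94) for Timp1 and 0.56 (SE 0.70) for Mmp13, and without that library 2.18 and 1.62, still not called (edgeR adjusted p = 0.238 and 0.214). Mmp14, at 24.1 to 66.1 against 39.2 to 72.2 CPM, and Mmp19, at 42.6 to 85.1 against 57.7 to 84.8 CPM, had values of 0.17 (SE 0.32) and 0.15 (SE 0.23). Mmp9 was at 0.304 to 1.34 against 0.227 to 1.54 CPM, with a log2 fold change of 0.12 (SE 0.49). Limma voom with quality weights called 4 of the 10 (Mmp2, Timp1, Timp2 and Loxl2; 12.7% of all genes).

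With sex as a term 1 of the 10 was called, Timp2 (3.98% of all genes). Without both KO NASH replicates 1 and 5 there were 0 (0.717% of genes), and without the 6 libraries of negative slope 1, again Timp2 (7.69% of genes).

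**Figure D3:**
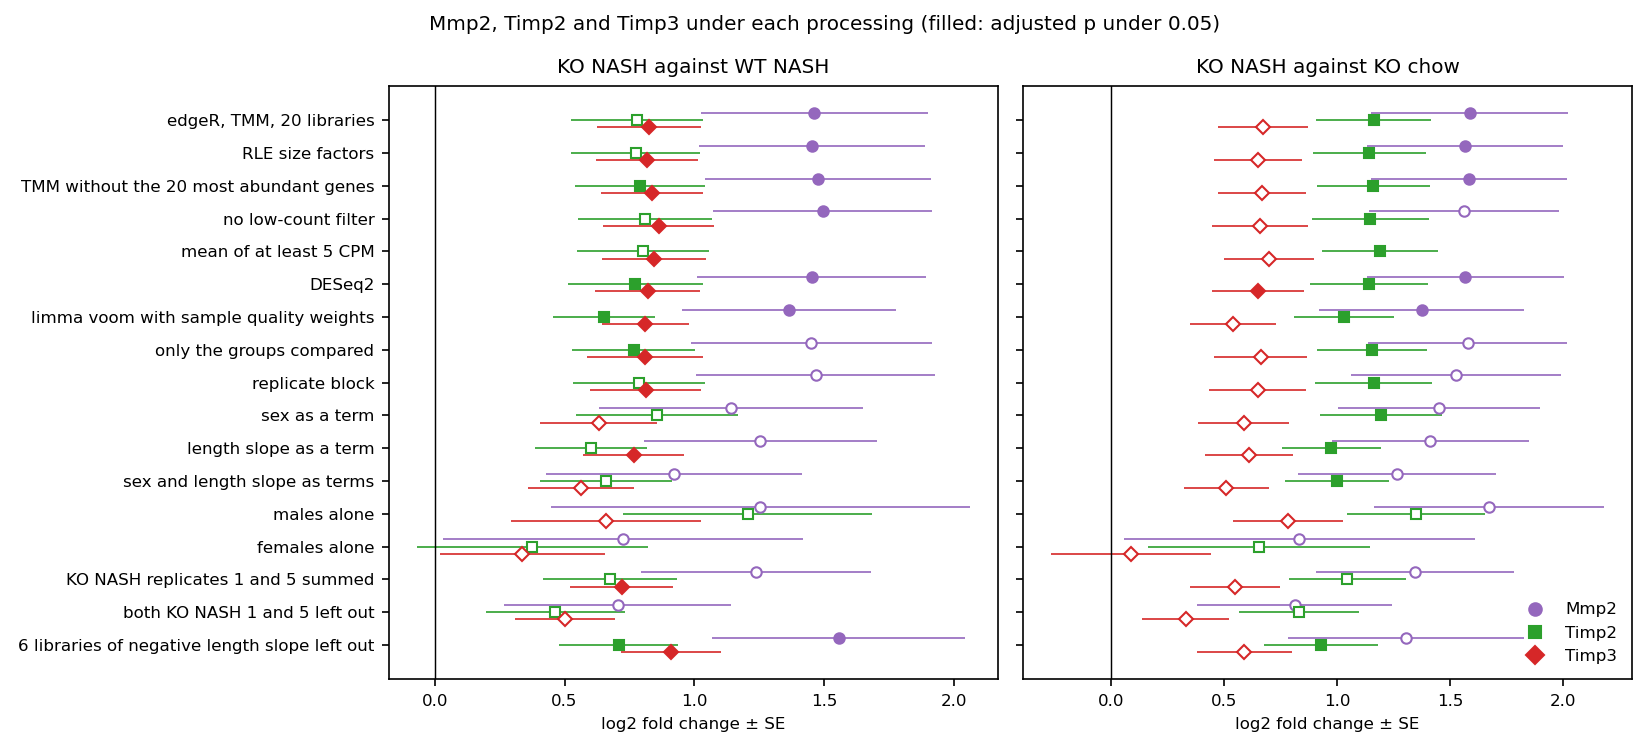
Log2 fold change with its SE (x axis) of Mmp2, Timp2 and Timp3 under each way of fitting (y axis) for KO NASH against WT NASH (left) and against KO chow (right); filled symbols have an adjusted p under 0.05. All values are above 0, and none of the 3 genes is filled where both KO NASH replicates 1 and 5 are left out.

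The interaction asks whether the genotype difference on the NASH diet exceeds that on chow, and none of the 10 was called by edgeR (0.139% of all genes), DESeq2 (1.31%) or limma voom with quality weights (13.5%). At an unadjusted p under 0.05 there were 2 (8.25% of genes). Timp3 had an interaction of 0.92 on the log2 scale with an SE of 0.28 (edgeR unadjusted p = 0.00401, adjusted p = 0.236), and Timp2 one of 0.80 (SE 0.36, unadjusted p = 0.0366, adjusted p = 0.548). For Mmp2 it was 1.08 (SE 0.62, adjusted p = 0.702). Of the 10 interactions 9 were positive, with a median of 0.77 against -0.03 over all genes, and no single gene was shown to have a larger genotype difference on the NASH diet.

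Summed per kilobase, the 3 Timp genes were at 5.97 to 10.2 CPM per kb in the 15 libraries outside KO NASH and at 19.1, 11.1, 12.4, 12.6 and 21.4 in KO NASH replicates 1 to 5, all higher. The 5 Mmp genes, most of whose sum is Mmp19, summed to 33.2 ± 2.67 CPM per kb in KO NASH and 28.3 ± 4.24 in KO chow, against 31.9 ± 8.32 and 32.2 ± 3.3 in WT NASH and WT chow (SD, n = 5 each). The Timp share of the summed Mmp and Timp level was 23.5% to 39.1% in KO NASH, and it was 19.6% to 25.6% in KO chow, 14.4% to 34.0% in WT NASH and 14.2% to 25.7% in WT chow. All groups overlapped in it, and WT NASH replicate 4 reached 34.0%, the library with the lowest Mmp14 level of all, 14.9 CPM. These sums follow from the single genes and were not tested.

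Some markers of other cells were highest in the libraries where several of these levels were highest. The summed CPM of 7 myofibroblast markers (Acta2, Tagln, Col1a1, Col1a2, Col3a1, Postn and Cthrc1) was 58.5 to 216 in KO NASH, and it was 43.3 to 101 in KO chow, 50.8 to 101 in WT NASH and 45.3 to 73.1 in WT chow. The 2 highest sums, 216 and 210, were again those of KO NASH replicates 1 and 5, and Cthrc1, a defining marker of the activated cells, was at 0 in every library of KO NASH, KO chow and WT NASH. These markers include 3 collagen genes, Col1a1, Col1a2 and Col3a1, that are also among the matrix genes described last. The 3 collagen genes were highest of all 20 libraries in KO NASH replicates 1 and 5, but the other markers were not. Acta2 and Tagln were highest in WT chow replicate 3, at 14.5 and 14.8 CPM, and Postn in KO chow replicate 5, at 39.1 CPM. Of the 6 myofibroblast markers tested, 1 was called higher in KO NASH than in WT NASH (Col1a2), where 4.9% of all genes were. Against KO chow 1 was called higher (Col1a1), where 1.77% of all genes were. Markers of quiescent and activated stellate cells such as Lrat, Pdgfrb and Dcn summed to 516 to 772 CPM in KO NASH. That was inside the 229 to 1250 CPM of the other groups. By edgeR or DESeq2 0 of 10 were called in any comparison. At most 2 had an unadjusted p under 0.05, in KO chow against WT chow (19.4% of all genes) and KO NASH against WT NASH (25.6%). Pdgfrb and Reln, another of these markers, were highest of all 20 libraries in KO NASH replicates 1 and 5. Pdgfrb was at 19.66 and 19.95 CPM there, against at most 14.84 CPM outside KO NASH. In KO NASH replicates 2, 3 and 4 it was at 9.53, 16.51 and 12.27 CPM. The other stellate cell markers were highest elsewhere, Lrat and Dcn in KO chow replicate 5. Endothelial markers were at 211 to 335 CPM in KO NASH, highest in replicates 1 and 5 at 335 each, against 170 to 254 CPM in WT NASH. Against WT NASH 2 of these 7 markers were called higher in KO NASH, where 4.9% of all genes were. The sum of cholangiocyte markers was highest in KO NASH replicates 1 and 5, at 16.1 and 14.5 CPM against at most 11.9 elsewhere. Epcam was highest in them too, at 5.80 and 5.12 CPM, but Krt7 was highest in WT chow replicate 5, at 2.70 CPM. Sox9 was highest in KO NASH replicate 1, at 6.40 CPM. In KO NASH replicate 5 it was at 4.13 CPM, within the 4.00 to 6.35 CPM of WT NASH. Hepatocyte markers such as Alb and Apoa1 summed to 44200 to 116000 CPM over all libraries, as fits the label of liver. In bulk RNA, more cells of a type and more RNA per cell cannot be told apart, and the part of these cells in the results was not tested.

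**Figure D4:**
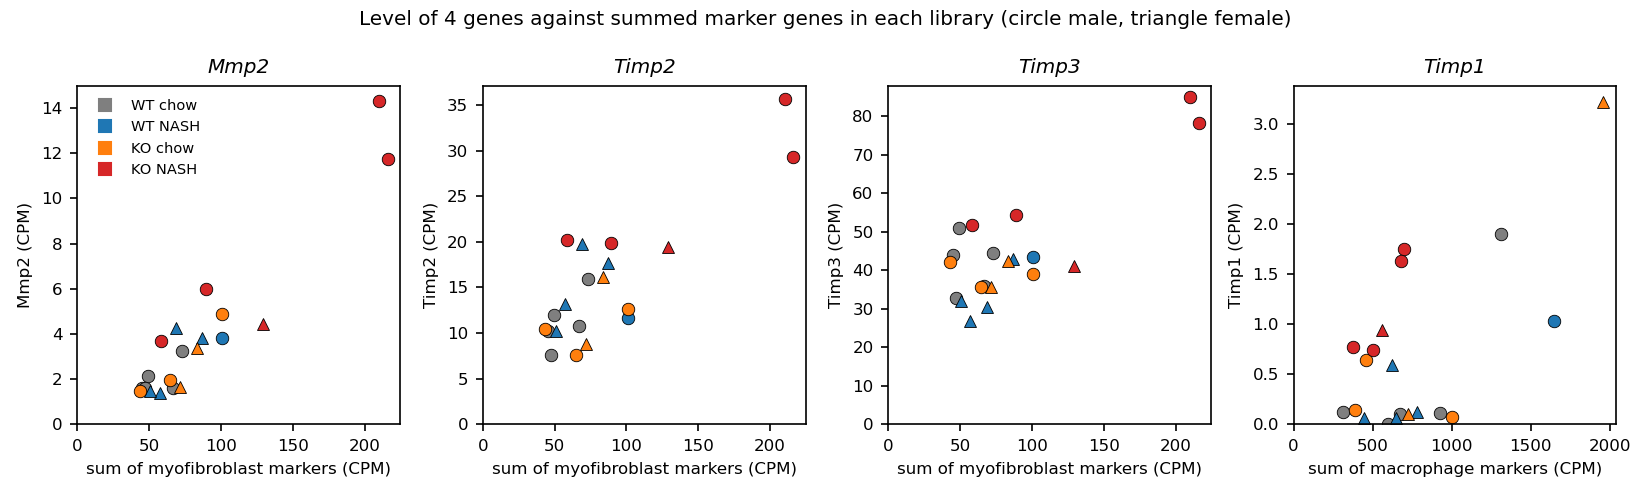
Level of Mmp2, Timp2 and Timp3 (y axes, CPM) against the summed CPM of 7 myofibroblast markers, and of Timp1 against that of 14 macrophage markers, 1 point per library (circles males, triangles females). KO NASH replicates 1 and 5 lie at 216 and 210 on the myofibroblast axis, and the 3 libraries at 1310 to 1960 on the macrophage axis hold 1.03 to 3.22 CPM of Timp1.

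Timp1 and Mmp13 followed another set of libraries. In the chow groups Timp1 was at 0.119, 0.108, 0.0995, 1.90 and 0 CPM in WT chow replicates 1 to 5 and at 0.139, 0.643, 0.0990, 0.0726 and 3.22 CPM in KO chow replicates 1 to 5. The 0 in WT chow replicate 5 allows up to 0.208 CPM, the level of 3 counts. Mmp13 was at 0.296, 0.542, 0.796, 1.71 and 0.762 CPM in WT chow and at 0.371, 1.13, 0.297, 0.0726 and 3.34 CPM in KO chow. WT chow replicate 4 and KO chow replicate 5 were thus the highest of their groups for both genes, by a wide gap for Timp1. The summed level of 14 macrophage markers was 1310 CPM in WT chow replicate 4, 1650 in WT NASH replicate 4 and 1960 in KO chow replicate 5, the 3 highest of all libraries, with the others at 311 to 1000 CPM. In the same 3 libraries neutrophil markers summed to 35.8, 15.6 and 60.8 CPM, against 6.75 to 42.4 elsewhere, and all 3 are among the 6 of negative length slope. KO NASH replicates 1 and 5, where Timp1 and Mmp13 were also high, had macrophage sums of 700 and 677 CPM and neutrophil sums of 8.70 and 9.07 CPM, within the range of the other libraries. Single genes of the macrophage list differed from its sum. In the 3 libraries with the highest sums, Lyz2 was at 387, 510 and 925 CPM and Spp1 at 259, 522 and 246 CPM. Vsig4 was highest in the same 3 libraries, at 216, 203 and 197 CPM. Marco, Timd4 and Csf1r were highest in WT chow replicate 2, at 205, 36.8 and 118 CPM, and Cd68 in KO chow replicate 3. Gpnmb, a glycoprotein of lipid-laden macrophages, was highest of all 20 libraries in KO NASH replicates 1 and 5, at 15.3 and 16.2 CPM. It was called higher in KO NASH than in WT NASH (log2 fold change 4.25, edgeR adjusted p = 0.00177). Itgax was also highest in these 2 libraries, at 5.71 and 6.17 CPM, but was not called (0.24, adjusted p = 0.735). Timd4, a marker of resident macrophages, was called lower, at 4.79 to 7.14 CPM in KO NASH against 8.65 to 27.2 CPM in WT NASH (edgeR adjusted p = 0.0408). The part of these cells in the levels of Timp1 and Mmp13 was not tested.

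The 10 genes were compared in 45 pairs by the correlation of log2 CPM over 20 libraries, taken as deviations from the group means. Of these, 10 pairs had a Benjamini-Hochberg adjusted permutation p under 0.05, 8 positive and 2 negative. Mmp13 and Timp1 were the closest pair (Pearson r = 0.79, permutation p = 1e-05, the smallest that 100000 resamples can give, adjusted p = 0.00045; Spearman rho = 0.67, permutation p = 0.0018, adjusted p = 0.0195). Without the 2 libraries farthest from the median of Mmp13, KO chow replicates 4 and 5, r was 0.69. It was 0.72 within the 14 libraries without a negative slope and 0.715 within 12 males, the lone WT NASH male left out. Mmp2 and Timp2 came next (r = 0.76, permutation p = 0.0001, adjusted p = 0.00225; rho = 0.66, permutation p = 0.0019, adjusted p = 0.0195). Here r was 0.73 without KO NASH replicate 5 and KO chow replicate 2, the farthest for Mmp2, 0.87 within the 14 libraries, 0.80 within males and 0.68 without both KO NASH replicates 1 and 5.

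Mmp2 also varied with Lox (r = 0.71, permutation p = 0.00062, adjusted p = 0.0093; rho = 0.67, adjusted p = 0.0195) and with Timp3 (r = 0.67, permutation p = 0.0013, adjusted p = 0.0121; rho = 0.65, adjusted p = 0.0195). Without the same 2 far libraries these were 0.63 and 0.66, and without both KO NASH replicates 1 and 5 they were 0.635 and 0.475. Mmp19 varied inversely: its r was -0.68 with Timp3 (permutation p = 0.00096, adjusted p = 0.0108; rho = -0.64, adjusted p = 0.0195) and -0.61 with Lox (permutation p = 0.0045, adjusted p = 0.0334; rho = -0.66, adjusted p = 0.0195). Without WT NASH replicate 4 and KO chow replicate 1, the farthest for Mmp19, these were -0.67 and -0.74. Within the 14 libraries they were -0.56 and -0.35, and within males -0.73 and -0.53. All points share the depth and length slope of their library.

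**Figure D5:**
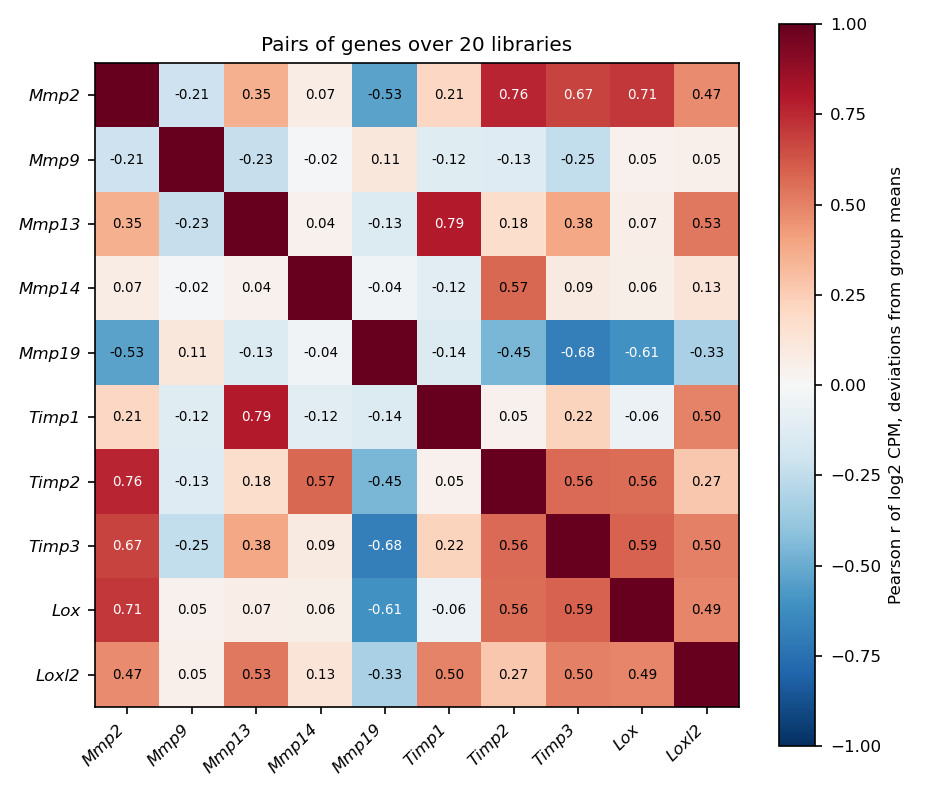
Pearson r between each pair of the 10 genes (rows and columns, same order) over 20 libraries, from log2 CPM as deviations from the group means; red is positive and blue negative. Mmp13 with Timp1 (0.79) and Mmp2 with Timp2 (0.76) are the highest, and Mmp19 with Timp3 (-0.68) is the lowest.

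Among genes averaging 5 CPM or more, those most like each member were found by the Pearson correlation of log2 CPM over the 20 libraries, a description that includes the group differences. Mmp2 was closest to Col1a2, a chain of type I collagen (r = 0.89), to Timp2 (0.88) and to Thbs2 (0.88), a secreted matrix glycoprotein. For Timp2 they were Adamtsl2 (0.93), Lamb2, a laminin chain (0.93), and Col6a1 (0.92). Loxl2 was nearest to Col5a2 (0.85), Myof (0.84) and the basement membrane gene Nid1 (0.84), and Lox to Vim (0.82), Sparc (0.82) and Nin (0.80). Mmp13 was nearest to Cd63 (0.87), Emp1 (0.80) and Mmp12, the macrophage elastase (0.79), and Timp1 to Mmp12 (0.82), Gpx3 (0.81) and Emp1 (0.81). Timp3 was closest to Galnt15 (0.79), Arhgef6 (0.78) and Arhgap27 (0.78), Mmp14 to Lrrc61 (0.91), Mertk (0.90) and Amotl1 (0.89), and Mmp19 to Tapbpl (0.89), Bcat2 (0.87) and Pdzk1 (0.85). Mmp9 had the weakest neighbours, Atp2c1 (0.76), Btg1 (0.68) and Brip1os (0.66).

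Around the 10 genes, 79 others of the pathway were listed, of which 67 passed the low-count filter. In WT NASH against WT chow, groups unlike in sex, 6 were called higher and 0 lower (median log2 fold change 0.39), where 2.69% of all genes were higher. In KO chow against WT chow 2 were called higher and 0 lower (0.14), a share near the 3.03% of all genes. In KO NASH against WT NASH 12 were higher and 2 lower (0.53; 4.9% of all genes higher), and against KO chow 9 were higher and 0 lower (0.57; 1.77% of all genes higher). The interaction gave 0 (0.21). The medians over all genes stood between -0.03 and 0.01.

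Most of the calls in KO NASH were lost without the 2 libraries that stood apart. Without both KO NASH replicates 1 and 5, 68 of the pathway genes could be tested. In KO NASH against WT NASH 2 were called, Adamts1 higher and Loxl4 lower, where 2.62% of all genes were. Against KO chow 1 was called, Loxl1, where 0.717% of all genes were. Calls over all genes thus also fell, from 9.65% and 3.29% in the fit to all 20 libraries. With sex as a term 2 of the 67 were called against WT NASH, Col4a1 higher and Loxl4 lower (4.33% of all genes). Against KO chow 7 were called with that term (3.98% of all genes). In WT NASH against WT chow that term left 2 of the 6, Loxl4 and P4ha1, where it called 161 of 14440 genes. In KO chow against WT chow Col4a1 and Col4a2 were called in both of these fits, with Adamts1 besides when sex was a term. For that comparison 684 of 14786 genes were called without these replicates and 844 of 14440 with sex as a term. The values that follow are from the fit to all 20 libraries without that term.

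Of the 3 other lysyl oxidases, Loxl4 and Loxl1 were called higher in WT NASH than in WT chow (2.69% of all genes were), and Loxl3 was not. Loxl4 was at 9.97 ± 9.98 CPM in WT NASH against 0.920 ± 0.616 in WT chow (n = 5 each; log2 fold change 3.48, edgeR adjusted p = 0.000958), and it was lower in KO NASH at 1.40 ± 0.461 CPM (against WT NASH -2.84, adjusted p = 0.002). Loxl1, which acts chiefly on elastin, was higher on the NASH diet in WT (1.21, adjusted p = 0.0419) and in the knockout (1.98, adjusted p = 0.00487). Its mean was 3.11 CPM in KO NASH and 0.781 in KO chow, against 2.00 and 0.866 CPM in WT NASH and WT chow. Whether Lox and Loxl1 or Loxl4 differ in their response was not tested.

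Among 15 proteases of the ADAM and ADAMTS families, which release cell-surface proteins or cut proteoglycans and procollagens, 5 were higher in KO NASH than in WT NASH (Adam15, Adamts1, Adamts4, Adamts12 and Adamts14), where 4.9% of all genes were. Against KO chow 3 were higher (Adam15, Adamts9 and Adamts14), where 1.77% of all genes were. Without both KO NASH replicates 1 and 5 these counts were 1 and 0 (2.62% and 0.717% of all genes called). With sex as a term they were 0 and 2 (4.33% and 3.98%). Adamts14 was at 8.53, 2.44, 1.74, 1.72 and 9.75 CPM in KO NASH replicates 1 to 5, and without both replicates 1 and 5 its log2 fold change against WT NASH went from 1.92 to 0.63 (edgeR adjusted p = 0.559). Adamts1 was at 22.1 ± 8.76 CPM in KO NASH and 8.85 ± 1.43 in WT NASH (log2 fold change 1.32, edgeR adjusted p = 0.00498), without overlap, and it was called without these libraries (1.19, adjusted p = 0.0469) but not with sex as a term (1.12, adjusted p = 0.0568). Of 14 other metalloproteinases 6 could be tested, and edgeR called 0 of them. At most 3 had an unadjusted p under 0.05, in KO NASH against KO chow, where 22.2% of all genes did. DESeq2 called 3 higher in KO NASH than in KO chow (Mmp11, Mmp15 and Mmp23), where it called 9.02% of all genes. None of the 6 cathepsins, the lysosomal proteases, was called by edgeR or DESeq2. At most 2 had an unadjusted p under 0.05, in WT NASH against WT chow, where 22.1% of all genes did. Of 8 genes of the plasmin system, which activates several metalloproteinases, 1 was called in KO NASH against WT NASH (9.65% of all genes). It was Plat, the tissue plasminogen activator (2.22, edgeR adjusted p = 0.0343). Plat was at 5.24 and 3.67 CPM in KO NASH replicates 1 and 5 and 0.869 to 1.58 CPM in the other 3. DESeq2 called 2 of the 8 higher and 1 lower there (15.2% of all genes), and 1 lower in KO chow than in WT chow (9.62%). Plg, the plasminogen gene, was at 1665 to 1920 CPM in KO NASH and 2633 to 2918 in WT NASH, without overlap (14.1% of genes). On chow it was at 955 to 2544 CPM in KO and 2611 to 3689 in WT, also without overlap (4.91% of genes). Of the 3 other inhibitors tested 1 was called in KO NASH against WT NASH (9.65% of all genes). Tfpi2, a Kunitz-type protease inhibitor, was lower in KO NASH at 45.2 ± 7.96 against 167 ± 144 CPM in WT NASH (-1.88, edgeR adjusted p = 0.0331).

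Over all 20 libraries several substrates of these enzymes were higher in the knockout. Of 10 matrix genes 5 were higher in KO NASH than in WT NASH (Col1a2, Col4a1, Col4a2, Col6a1 and Eln), with a median log2 fold change of 1.25, where 4.9% of all genes were higher. In that comparison 0 of the 10 were called without both KO NASH replicates 1 and 5 (2.62% of all genes). With sex as a term 1 was called, Col4a1 (4.33% of all genes). The type IV collagen genes Col4a1 and Col4a2 were the 2 higher in KO chow than in WT chow (3.03% of all genes higher), and both were called in these fits as well. Col4a1 was at 93.6 ± 35.5 CPM in KO NASH and 61.5 ± 32.2 in KO chow, against 28.9 ± 2.77 and 18.8 ± 7.64 CPM in WT NASH and WT chow (KO NASH against WT NASH 1.69, edgeR adjusted p = 0.00401, and 0.0586 without both KO NASH replicates 1 and 5). On the NASH diet Fn1, fibronectin, was higher in WT (1.25, adjusted p = 0.0395), and Col1a1 (2.26, adjusted p = 0.0287) and Col6a1 (1.23, adjusted p = 0.0484) in the knockout. Of 11 collagen-maturation genes 2 were called higher on the NASH diet in each genotype. Of all genes 2.69% were called higher in WT and 1.77% in the knockout. P4ha1, a prolyl hydroxylase subunit, was called in both (0.89 and 0.84, edgeR adjusted p = 0.0129 and 0.0309). The other was Tgm2 in WT (0.90, adjusted p = 0.02) and the collagen chaperone Serpinh1 in the knockout (1.22, adjusted p = 0.025). Of 5 receptors edgeR called 1 higher and 0 lower in KO NASH than in WT NASH, where 4.9% of all genes were higher. It was Ddr1, a collagen receptor kinase (2.63, edgeR adjusted p = 0.0196). Without both KO NASH replicates 1 and 5 the value for Ddr1 was 1.24 (adjusted p = 0.353). DESeq2 called 1 receptor higher and 1 lower in KO NASH than in WT NASH (15.2% of all genes). Cd44 was at 9.39 to 12.99 CPM in KO NASH and 15.72 to 37.96 CPM in WT NASH, without overlap (14.1% of genes). Against KO chow edgeR called 1 receptor higher (1.77% of all genes). It was Mrc2, which takes up collagen fragments (1.80, adjusted p = 0.00942).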

How the data were processed

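Whole liver RNA of 20 mice was sequenced; per the labels' protocols it was extracted with Trizol, had an integrity number above 8 and went into standard Illumina libraries. Reads were aligned by the authors with HISAT2 2.0.4 to GRCm38, per the submitters' processing notes; the sources used here do not give the counting program, annotation or strand setting. The authors deposited raw counts per gene symbol; columns named HFD were read as the NASH diet, since all remaining columns are chow. In R 4.3.3, edgeR 4.0.16 (filterByExpr, minimum count 10; TMM; 1 model of 4 groups over 20 libraries; quasi-likelihood F test) tested 14440 genes, with Benjamini-Hochberg adjustment over all of them and calls at an adjusted p under 0.05. The SE is the unshrunk log2 fold change over the root of F. The fit was tested on simulated counts for 14440 genes, 200 of them changed 4-fold. In the order WT NASH and then KO chow against WT chow, it recovered 83.5% and 79.5% of these. With KO NASH set against WT NASH it recovered 86%, with KO NASH set against KO chow 78.5%, and as an interaction 51%. A library was taken as male where 4 Y-linked genes summed to 100 counts or more. The length slope is that of a library's log2 CPM, minus the average library, against exonic length on the log2 scale (GENCODE M21, matched by symbol for 93.5% of tested genes), over 9520 genes. The labels name no molecular identifiers, so limits from counts cover counting error only.

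The 10 genes and all lists were chosen with earlier results of these data known. All 10 are described. Other pathway genes are named mainly if called by edgeR or DESeq2, and each member's 3 nearest genes exclude predicted genes and pseudogenes. Alternatives were RLE size factors, TMM without the 20 most abundant genes, no filter, a mean of at least 5 CPM, DESeq2 1.42.0, voom with quality weights (limma 3.58.1), a fit to only the compared groups, a block for the replicate number, sex, length slope or both as terms, each sex alone, KO NASH replicates 1 and 5 summed, and each library left out. Leaving out both KO NASH replicates 1 and 5, or the 6 libraries of negative slope, was added after seeing the data, as was refitting the other pathway genes without these replicates or with sex as a term.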

Additional observations from a re-analysis of the deposited data

Results flagged for a closer look

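Over the 40 sets of 5 libraries (10 genes in 4 groups), 3 held a library that stood apart from its group by more than 0.710 of the group's range, Dixon's 95% limit for 5 values; chance alone would flag about 1 in 20 sets. Timp1 reached 1.90 CPM in WT chow replicate 4, where the other 4 libraries were at 0 to 0.119 CPM. Timp1 also reached 3.22 CPM in KO chow replicate 5, against 0.0726 to 0.643 CPM in the rest of that group. Mmp9 was at 1.34 CPM in KO chow replicate 3, against 0.304 to 0.581 CPM in the other KO chow libraries.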

How the results depend on the processing

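No alternative called any of the 10 genes in WT NASH against WT chow or in the interaction, where the main count was 0. For KO chow against WT chow it was 2 by limma voom and 1 with sex and slope as terms, and otherwise 0. For KO NASH against WT NASH the main count of 2 became 0 with sex as a term, with sex and slope as terms, in females alone and without both KO NASH replicates 1 and 5; 1 with a mean of at least 5 CPM (4 genes tested), with KO NASH replicates 1 and 5 summed and in males alone (Mmp14, where the WT NASH arm is 1 library, the lowest of all 20 for it); 3 with TMM without the 20 most abundant genes (Timp2 added); 4 by DESeq2, 5 by limma voom and 6 without the 6 libraries of negative slope. For KO NASH against KO chow the main count of 2 became 0 in each sex alone, with those replicates summed or both left out; 1 without the filter, with a mean of at least 5 CPM, with only the groups compared, with each or both terms and without the 6 libraries; 3 by DESeq2 and 4 by limma voom. Leaving out 1 library gave 1 to 3 for the former and 0 to 3 for the latter. The replicate number did not pair the mice (13 of 30 same-numbered pairs correlated over 0.1, from -0.41 to 0.52, and 6 of 20 libraries correlated best with their own number); with it as a replicate block 1 gene was called in each of these comparisons (Timp3, and Timp2). Over all genes, males alone moved the median log2 fold change of KO NASH against WT NASH, with 1 WT library, to 0.19.

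Of 50 log2 fold changes (10 genes in 5 comparisons) 26 turned sign in at least 1 alternative, among them 0 that were called, and no turned value was called (lowest adjusted p 0.0518). Besides the values given above, the turns included Mmp14 in WT NASH (0.12 to -1.52), Lox in WT NASH (0.31 to -0.86) and Mmp13 in KO chow (0.38 to -0.68). Sex as a term gave Mmp9 -0.034 in WT NASH and Mmp19 0.15 in KO NASH against WT NASH, and a median of the members of -0.022 in WT NASH. Sex and slope together gave Mmp9 -0.041 in WT NASH, Mmp14 -0.23 in KO chow, Mmp19 0.24 and Lox -0.21 in KO NASH against WT NASH, and Mmp14 -0.016 against KO chow. Males alone gave Timp1 -0.40 and a median of -0.11 in KO chow, Mmp19 0.48 and Lox -0.12 against WT NASH, and Mmp9 -0.12 against KO chow. Females alone gave Mmp9 0.80 against WT NASH, and Mmp13 -1.37 and Timp1 -0.77 against KO chow. Without both KO NASH replicates 1 and 5, Lox was -0.0078 against WT NASH, and Mmp13 -0.65, Mmp14 -0.046 and Timp1 -0.013 against KO chow. Mmp14 against KO chow was -0.0465 by limma voom, -0.14 with the slope as a term and -0.13 without the 6 libraries, where Mmp9 was -0.14. Leaving out 1 library gave -0.38 to 0.55 for Mmp9 and -0.014 to 0.29 for Mmp14 against KO chow, and -0.64 to 3.33 for Timp1 in KO chow. The causes were not tested. Depth limits Timp1, Mmp13, Mmp9 and Lox, which had fewer than 10 counts in 8 to 11 libraries.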
